A study of Mustela putorius furo and Mus musculus with 4 samples.

Results

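Caveolae are small flask-shaped pits of the plasma membrane that store membrane, buffer stretch and gather signalling proteins. Their coat is built of caveolins, which are inserted in the membrane, and of cavins, which are recruited from the cytosol and stabilise the pit, while EHD2 and PACSIN2 sit at its neck and shape the membrane there. Caveolin-1 and cavin-1 are needed for caveolae in most cell types, whereas caveolin-3 and cavin-4 are the muscle forms. In the brain caveolae are best known from vessel-associated cells, and cultured astrocytes also express caveolin-1. The 9 genes described are the 3 caveolins (Cav1, Cav2 and Cav3), the 4 cavins (Cavin1, Cavin2, Cavin3 and Cavin4), Ehd2 and Pacsin2. They were taken by symbol, regardless of case, from 13373 symbols shared by both species. All 9 were present with a single row in each species, so no choice between rows was needed. The members were chosen by name, with results of these libraries known, and the family was selected on the FPKM of Cavin2, which the study ranked among its mouse-specific genes. The values of Cavin2 are therefore given as a description without a test.

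The cells were primary astrocytes from the neonatal cerebral cortex, in 2 libraries from ferrets and 2 from mice of the ICR strain. Ferrets were at postnatal day 1 and mice between postnatal days 1 and 3, and no genetic change or drug was applied in either species. Cells of both species grew as mixed glia for 14 days in medium with serum, were shaken to remove loosely attached cells, replated, and moved to serum-free medium with heparin-binding EGF-like growth factor before RNA was taken. In the study's routine, cells of 1 ferret pup filled several flasks whereas cells of several mouse pups were pooled in 1 flask. The sources used here do not say whether duplicate libraries came from separate cultures, so p-values measure only the spread between these 4 libraries, which may be technical. Species, gene models and culture cannot be told apart in this design.

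Expression is given as FPKM, which is a fragment count divided by exon length and by the library's mapped fragments, as deposited by the authors for each species on its own gene annotation. The study also lists read counts, which were not used here for these genes, and the deposited FPKM carry no depth, so low values are given without a counting interval. Over the shared symbols the ferret libraries summed to 227391 and 236543 FPKM, and the mouse libraries to 300465 and 308122. Differences between species are on the scale of log2(FPKM + 1) as ferret minus mouse, fitted with limma across the 10204 genes whose mean FPKM reached 1 in ferret, mouse or both, and p-values were adjusted by Benjamini-Hochberg over all of them. This scale understates the change of low genes. A gene was called if its adjusted p was under 0.05 and it differed by more than 1 on the log2 scale in either direction. Over all tested genes the median of the log2 differences was -0.35, and it moved to -0.01 when the libraries were rescaled to equal sums, so each difference is also given relative to that median. Of the defining astrocyte markers, Gfap was high throughout, at 1481 and 1522 FPKM in ferret against 1429 and 1546 FPKM in mouse libraries, whereas the glutamate transporter gene Slc1a2 was near 0 in the ferret, at 0.133 and 0.178 FPKM against 47.1 and 51.8 FPKM. Of 10 astrocyte markers, 1 was called higher in ferret astrocytes, 6 were called lower and 3 were not called. Beside this, 13.1% of all tested genes were called higher and 30.1% lower. Slc1a2, among the lower ones, reached a mean FPKM of 1 only through the mouse libraries. Under the other 3 scalings 2 of the 10 were higher and 3 or 4 lower.

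Ferret astrocytes had more Cav1 RNA and less Cavin1 and Cavin3 RNA than mouse astrocytes. Cav1 stood 2.44-fold higher in ferret astrocytes, while Cavin1 was 3.61-fold and Cavin3 3.74-fold higher in mouse astrocytes, as ratios of mean FPKM. Cavin2 was among the highest caveolae genes of mouse astrocytes and stood below 1 FPKM in both ferret libraries. Of the 9 genes, 7 reached the limit for testing. Cavin2 reached it only through the mouse libraries, and Cav3 and Cavin4 reached it in neither species. Among the 6 tested genes other than Cavin2, 1 was called higher in ferret astrocytes, 2 were called lower, and 3 were not called, beside 43.2% of all tested genes that were called in either direction (13.1% higher and 30.1% lower). With the adjusted p alone all 6 passed, as did 88.6% of all tested genes, so that passing this limit is not particular to caveolae genes. How many of all tested genes separate the species without overlap was not counted, so a lack of overlap is given only as a description. The median log2 difference of these 6 genes was -0.75, beside -0.35 for all tested genes.

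**Figure D1:**
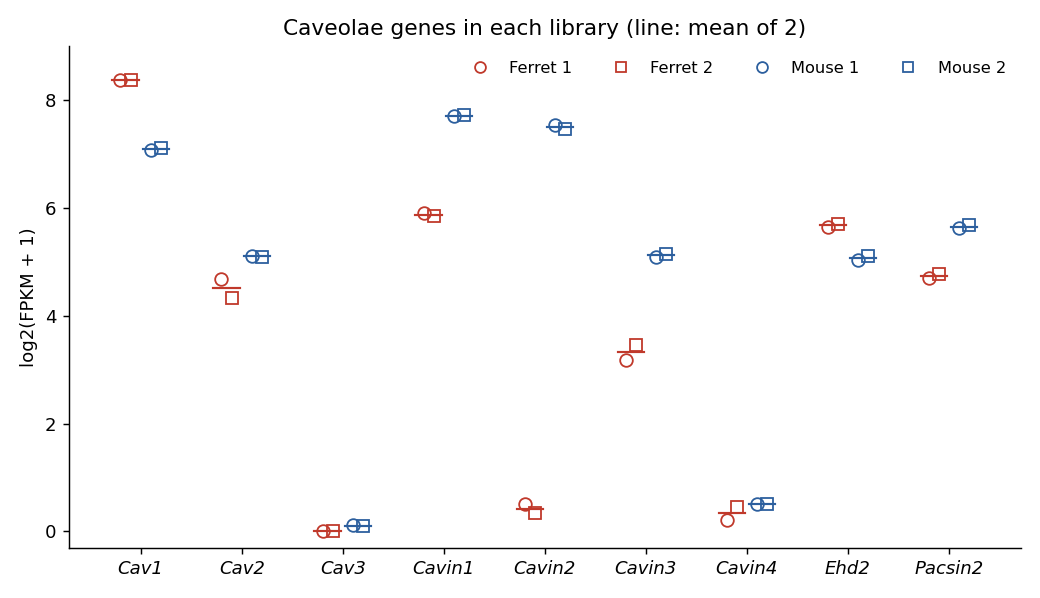
Level of the 9 caveolae genes in each library, as log2(FPKM + 1) on the vertical axis. Red symbols are ferret and blue symbols mouse libraries, circles are replicate 1 and squares replicate 2, and each line is the mean of 2 libraries. Of the tested genes, Cav1 and Ehd2 lie higher in both ferret libraries and the others lie higher in both mouse libraries. Ferret Cavin2 lies near the floor with Cav3 and Cavin4, which were not tested.

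Cav1 encodes caveolin-1, the main structural protein of the caveolar membrane coat. It reached 328 and 329 FPKM in ferret against 133 and 136 FPKM in mouse libraries. The groups did not overlap, and duplicates differed by at most 0.04 on the log2 scale. Limma gave a log2 difference of 1.28 with a standard error of 0.056 (adjusted p = 1.19e-08), or 1.63 above the median of all tested genes. Cav1 held the highest level of the family in ferret astrocytes. It stood above 99.5% and 99.4% of the shared symbols in ferret but above 97.6% in each mouse library. Mouse Cav1 spans positions 17306335 to 17341452 of chromosome 6 (GRCm38, plus strand), with 7 exonic regions in 10 annotated transcripts.

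Cav2 encodes caveolin-2, which assembles with caveolin-1 into mixed oligomers. It reached 24.8 and 19.0 FPKM in ferret against 33.5 and 33.1 FPKM in mouse libraries. The ferret duplicates were further apart (0.37 on the log2 scale) than the median ferret gene (0.081), and both lay below the mouse values. Limma gave a log2 difference of -0.59 with a standard error of 0.103 (adjusted p = 3.69e-04), under the size required for a call. Relative to the median of all tested genes it was -0.24, and the adjusted p by limma was 0.148 with the libraries rescaled to equal sums and 0.154 after quantile normalization. The rank of Cav2 among the shared symbols overlapped between species, above 85.0% and 80.0% of symbols in ferret and above 85.3% and 84.8% in mouse libraries.

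Cav2 and Cav1 are neighbours in the mouse genome. Cav2 lies from 17281185 to 17289115 on chromosome 6 of GRCm38 on the plus strand, 17219 bp from Cav1, with 0 annotated genes that lie wholly between them. In the RefSeq annotation of another ferret assembly they also share a chromosome with 0 genes between them. Cav1 was called higher in ferret astrocytes while Cav2 was not called in either direction. Cav2 reached 0.075 and 0.058 of the Cav1 FPKM in the ferret libraries against 0.253 and 0.242 in the mouse libraries. This ratio was 3.75-fold lower in ferret astrocytes, a log2 difference of -1.91 against a gap of at most 0.39 between duplicates.

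Cav3 encodes the caveolin of muscle cells. It stood at 0.012 FPKM in ferret replicate 1, was listed at 0 in ferret replicate 2, and reached 0.087 and 0.073 FPKM in mouse. Its level was near the floor in every library, so no fold is given. Mouse Cav3 spans positions 112459505 to 112472872 of chromosome 6 (GRCm38, plus strand).

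Cavin1 encodes cavin-1, formerly named PTRF, the cavin without which caveolae do not form. It reached 58.7 and 56.3 FPKM in ferret against 207 and 208 FPKM in mouse libraries. Both mouse values exceeded both ferret values by far more than the gap between duplicates. Limma gave a log2 difference of -1.84 with a standard error of 0.057 (adjusted p = 1.07e-09), or -1.49 relative to the median of all tested genes. Cavin1 was the highest of the family in mouse astrocytes. In ferret astrocytes it ranked second after Cav1, at a level 5.72-fold below it. Mouse Cavin1 spans positions 100956733 to 100970887 of chromosome 11 (GRCm38, minus strand), with 3 exonic regions.

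Cavin2 encodes cavin-2, which binds phosphatidylserine and curves membranes. Its former name, serum deprivation response (SDPR), comes from its rise in serum-starved fibroblasts, and cultures of both species were in serum-free medium here. It reached 0.417 and 0.265 FPKM in ferret against 184 and 174 FPKM in mouse libraries. Its mean was 0.341 ± 0.107 FPKM (SD, n = 2) in ferret against 179 ± 6.63 FPKM (SD, n = 2) in mouse astrocytes, a 525-fold difference, and the log2 difference was -7.07. It stood above 25.9% and 23.6% of the shared symbols in ferret but above 98.5% and 98.3% in the mouse libraries. The size of this difference was part of why the gene was listed by the study, so it supports nothing further. Mouse Cavin2 spans positions 51289126 to 51302960 of chromosome 1 (GRCm38, plus strand), with 2 exonic regions and 3055 bp of exon. The length of the ferret gene model was not used here, and its part in the low ferret value was not tested.

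Cavin3 encodes cavin-3, formerly PRKCDBP, a protein kinase C delta-binding cavin. It reached 8.03 and 10.0 FPKM in ferret against 33.0 and 34.5 FPKM in mouse libraries. The groups were well apart, although the ferret duplicates differed by 0.29 on the log2 scale. Limma gave a log2 difference of -1.80 with a standard error of 0.092 (adjusted p = 3.52e-08), or -1.45 relative to the median of all tested genes. Mouse Cavin3 spans positions 105480083 to 105482300 of chromosome 7 (GRCm38, minus strand), with 2 exonic regions.

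Cavin4, formerly MURC, is the cavin of skeletal and cardiac muscle. It reached 0.160 and 0.375 FPKM in ferret against 0.418 and 0.426 FPKM in mouse libraries, under the limit for testing in both species. In ferret astrocytes the range of Cavin4 overlapped that of Cavin2, so that these levels did not differ beyond their spread. The striated muscle markers Myod1 and Myog were listed at 0 in all 4 libraries. Mouse Cavin4 spans positions 48663514 to 48673502 of chromosome 4 (GRCm38, plus strand).

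Ehd2 encodes an ATPase that forms rings at the caveolar neck and holds caveolae at the surface. It reached 49.1 and 51.0 FPKM in ferret against 31.9 and 33.3 FPKM in mouse libraries. Like Cav1 it was higher in both ferret libraries. Limma gave a log2 difference of 0.60 with a standard error of 0.059 (adjusted p = 5.34e-06), under the size required for a call. Relative to the median of all tested genes it was 0.95. When every library was set to a total of 1000000 it came to 1.003, just over the limit, and Ehd2 was then called higher. Mouse Ehd2 spans positions 15946958 to 15967567 of chromosome 7 (GRCm38, minus strand), with 6 exonic regions.

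Pacsin2 encodes an F-BAR protein that bends membrane at the caveolar neck. It reached 24.9 and 26.5 FPKM in ferret against 48.3 and 50.3 FPKM in mouse libraries. The groups did not overlap. Limma gave a log2 difference of -0.92 with a standard error of 0.062 (adjusted p = 2.88e-07), not a call, and -0.57 relative to the median of all tested genes. The 2 neck genes lay in opposite directions, and Pacsin2 had 0.506 and 0.519 of the Ehd2 FPKM in the ferret libraries against 1.52 and 1.51 in the mouse libraries. Mouse Pacsin2 spans positions 83375607 to 83464606 of chromosome 15 (GRCm38, minus strand). A processed pseudogene on the same strand, Gm5417, overlaps it, with 3.30 and 4.59 FPKM in the mouse libraries, and reads could have been split between them.

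**Figure D2:**
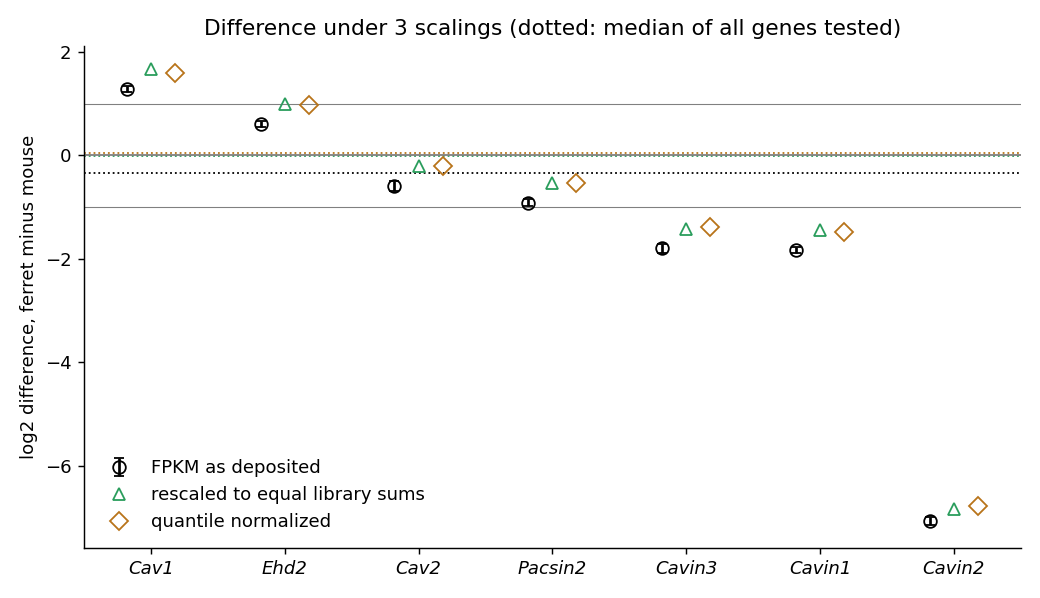
Difference between ferret and mouse astrocytes on the log2(FPKM + 1) scale for the 7 genes that reached the limit for testing. Circles are FPKM as deposited with the standard error from limma, triangles are libraries rescaled to equal sums, diamonds are quantile-normalized libraries, and dotted lines give the median of all tested genes for each. Each gene other than Cavin2, which is shown as a description, kept its sign under these 3 scalings, and Cav2 came closest to 0.

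In mouse astrocytes the order by mean FPKM, which is a level per exon length, was Cavin1, Cavin2, Cav1, Pacsin2, Cavin3, Cav2, Ehd2, Cavin4 and Cav3. The neighbours Cavin3, Cav2 and Ehd2, at 33.8, 33.3 and 32.6 FPKM, overlapped in their ranges and did not differ beyond their spread. In ferret astrocytes the order was Cav1, Cavin1, Ehd2, Pacsin2, Cav2, Cavin3, Cavin2, Cavin4 and Cav3, and only the neighbours Cavin2 and Cavin4 overlapped. Of the FPKM summed over the 9 genes, Cav1 took 66.4% and 66.8% in ferret against 19.8% and 20.3% in mouse libraries. Cavin1 and Cavin2 together with Cav1 carried most of the mouse sum, with Cavin1 at 30.9% and 31.1% and Cavin2 at 27.4% and 26.0%. In the ferret libraries Cavin1 held 11.9% and 11.4% and Cavin2 under 0.1%.

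**Figure D3:**
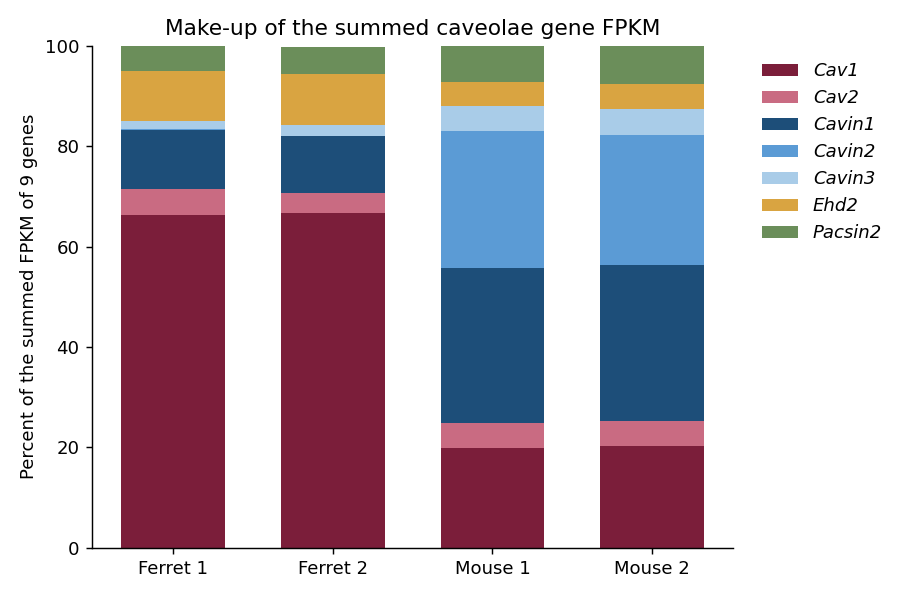
Make-up of the summed FPKM of the 9 caveolae genes in each of the 4 libraries, in percent on the vertical axis. Each colour is a gene, and Cav3 and Cavin4 are too small to be drawn. Cav1 takes 66.4% and 66.8% of the ferret bars and 19.8% and 20.3% of the mouse bars, where Cavin1 and Cavin2 are the largest parts.

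Ratios within a library do not depend on the scaling between libraries, although they depend on the gene models of each species. Ratios to Cav1 also carry its own log2 difference, which was 1.63 above the median of all tested genes. A gene at that median would therefore also have a lower ratio to Cav1 in ferret astrocytes. Cavin1 reached 0.179 and 0.171 of the Cav1 FPKM in the ferret libraries and exceeded Cav1 in the mouse libraries, at 1.56 and 1.53 times. This ratio was 8.83-fold lower in ferret astrocytes. The ratio of Cavin3 to Cav1 was 9.20-fold lower, at 0.024 and 0.030 in ferret and 0.249 and 0.253 in mouse libraries. The ratio of Ehd2 to Cav1 changed least among the 6 genes set against Cav1, by 1.59-fold, with 0.150 and 0.155 in ferret and 0.240 and 0.244 in mouse libraries. Cavin3 against Cavin1 did not separate the species, with 0.137 and 0.178 in ferret libraries around 0.160 and 0.166 in mouse libraries.

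Summed over the family, the 3 caveolins stood at 353 and 348 FPKM in the ferret and 166 and 170 FPKM in the mouse libraries. The 4 cavins stood at 67.3 and 66.9 FPKM in the ferret and 424 and 418 FPKM in the mouse libraries. The ratio of summed cavins to summed caveolins was 0.191 and 0.192 in ferret and 2.55 and 2.46 in mouse libraries, 13.1-fold apart. Without Cavin2 it was 0.189 and 0.191 against 1.45 and 1.44, or 7.57-fold apart. For each of these ratios other than that of Cavin3 to Cavin1, the libraries of the species did not overlap. How often ratios of other genes separate was not counted, so this separation is not read as particular to caveolae genes. No test was made of the ratios, since the smallest two-sided p of an exact permutation test with 2 libraries a group is 0.333.

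**Figure D4:**
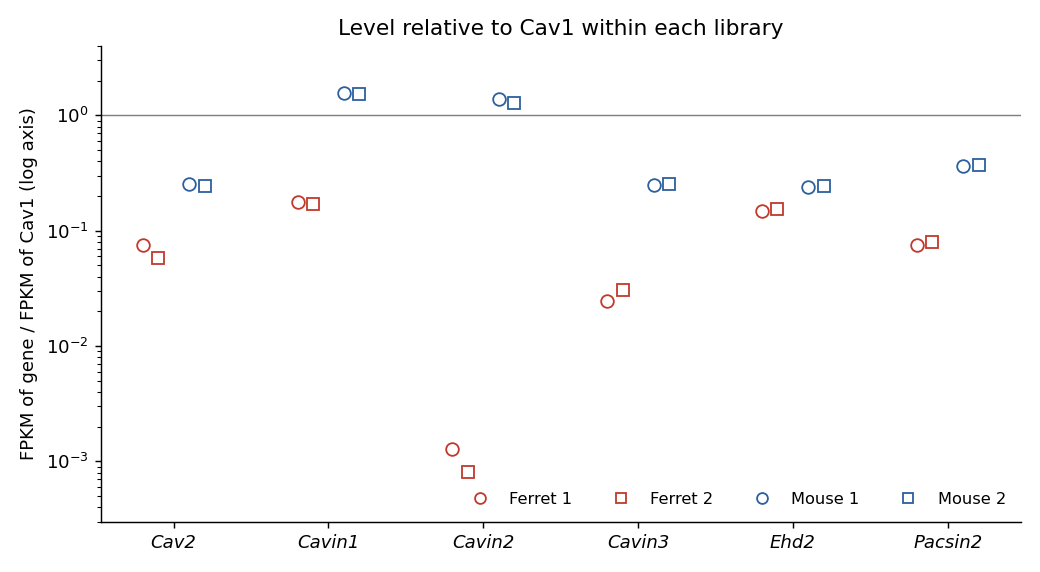
FPKM of 6 caveolae genes divided by the FPKM of Cav1 in the same library, on a log axis. Red symbols are ferret and blue symbols mouse libraries, circles are replicate 1 and squares replicate 2, and the grey line marks a level equal to Cav1. All 6 ratios are lower in both ferret libraries, in which Cav1 itself was higher. In the mouse libraries Cavin1 and Cavin2 lie above the line.

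Reads could be shared between family members only where their sequences match. The longest identical run between mouse transcripts was 15 bases among the caveolins (Cav1 and Cav3) and 16 bases among the cavins (Cavin1 and Cavin4). Antisense genes overlap Cavin2 and the Cav1 and Cav2 locus in the mouse annotation, and their FPKM was at most 0.012 in either mouse library. Whether the counting used strand is not given in the sources used here.

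The counts for genes that work with caveolae or beside them stand against 13.1% of all tested genes called higher and 30.1% called lower. Of 4 tested relatives of Ehd2 and Pacsin2, 1 was called lower in ferret astrocytes and 3 were not called, with a median log2 difference of -0.87. The called gene was Ehd1, an EHD protein of endosome recycling, with 11.7 ± 1.18 FPKM (SD, n = 2) in ferret against 41.7 ± 1.50 FPKM (SD, n = 2) in mouse astrocytes. Limma gave it a log2 difference of -1.75 (adjusted p = 1.10e-08). Ehd2 was the only one of the 4 EHD genes with a higher level in both ferret libraries as deposited. Ehd3 moved from -0.39 to 0.00 between FPKM as deposited and quantile normalization. Of 8 tested partners of caveolae, 1 was called higher, 4 lower and 3 were not called. Of the 4 lower partners, 3 (Ror1, Cd36 and Plvap) reached the limit for testing only through the mouse libraries, so their direction was largely set by that limit and supports nothing. Fyn, a Src family kinase that phosphorylates caveolin-1, was the higher one, at 67.6 ± 5.78 FPKM (SD, n = 2) in ferret against 33.1 ± 0.995 FPKM (SD, n = 2) in mouse astrocytes. Limma gave it a log2 difference of 1.01 (adjusted p = 3.68e-07). Fyn fell short of the limit of 1 without ferret replicate 2 (0.92) or without mouse replicate 1 (0.98).

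The insulin receptor gene Insr was among the lower partners, with 1.46 ± 0.011 FPKM (SD, n = 2) in ferret against 7.81 ± 0.0999 FPKM (SD, n = 2) in mouse astrocytes. Cd36, a fatty acid receptor found in caveolae, had 0.058 and 0.058 FPKM in the ferret and 4.28 and 3.21 FPKM in the mouse libraries. Plvap, which forms the diaphragm of endothelial caveolae, stood at 0.011 and 0 FPKM in the ferret and at 2.84 and 3.24 FPKM in the mouse libraries. The log2 difference of Insr was -1.84, called by limma, and those of Cd36 and Plvap, given as a description, were -2.16 and -2.01. Flna, the actin crosslinker filamin A that binds caveolin-1, was not called, at 105 ± 2.44 FPKM (SD, n = 2) and 190.3 ± 0.800 (SD, n = 2).

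Flotillins scaffold membrane rafts without forming caveolae. Of 3 raft genes tested, Flot1 was called lower, at 25.2 ± 2.37 FPKM (SD, n = 2) in ferret against 73.4 ± 0.514 FPKM (SD, n = 2) in mouse astrocytes (log2 difference -1.51, adjusted p = 1.94e-08 by limma), and Flot2 and Stom were not called. The median of the 3 was -0.89, and with 1 of 3 called the count is close to the 30.1% of all tested genes. Clathrin coats serve the other main route of uptake. Of 18 clathrin coat genes tested, 0 were called higher, 3 were called lower (Ap2s1, Itsn1 and Fcho2) and 15 were not called, beside 13.1% higher and 30.1% lower over all tested genes, and the list's median log2 difference was -0.43 beside -0.35. Under each of the other 3 scalings 1 of the 18, Ap2s1, was called lower.

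Markers of other cell types differed between the species as well. The 10 fibroblast markers summed to between 112 and 126 FPKM in the ferret and between 1764 and 1786 FPKM in the mouse libraries. Lum, Mgp, Serpinf1 and Pcolce, 4 of the 10, reached the limit for testing only through the mouse libraries. Their direction was largely set by that limit, so they are not counted. The study also ranked Mgp, Serpinf1 and Pcolce as mouse-specific in these libraries. Of the others, Col1a1, Col1a2, Dcn, Col3a1 and Ogn were called lower, beside 30.1% of all tested genes. Pdgfra went the other way, at 3.15 FPKM in ferret against 1.44 FPKM in mouse astrocytes on average. It was not called as deposited but was called higher under the other 3 scalings. Mgp was listed at 0 in both ferret libraries. The 9 mural cell markers summed to between 174 and 198 FPKM in the ferret and between 1191 and 1234 FPKM in the mouse libraries. Of the 6 tested, 4 were called lower and 1, Kcnj8, was called higher, beside 30.1% lower and 13.1% higher over all tested genes. Kcnj8 reached the limit for testing only through the ferret libraries. Rgs5 was listed at 0 in both ferret libraries and stood at 0.601 and 0.576 FPKM in the mouse libraries. Tagln and Acta2 of that list, which many contractile cells express, made up most of its sum, with 141 and 21.6 FPKM in ferret and 892 and 230 FPKM in mouse astrocytes on average. In RNA of whole cultures, fewer cells of a type and less RNA per cell cannot be told apart.

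The 12 endothelial markers summed to between 0.844 and 0.889 FPKM in the ferret and between 31.9 and 32.7 FPKM in the mouse libraries. Only 4 of them could be tested, each through its mouse level alone, which left them no other direction, so no count of calls is given. Cdh5, the endothelial cadherin, made up most of the mouse sum at 22.0 and 22.5 FPKM and was listed at 0 in both ferret libraries. The endothelial markers Pecam1 and Cldn5 were at or near 0 in all 4 libraries, with Pecam1 at 0.041 and 0.031 FPKM and Cldn5 at 0 in the mouse. The 11 microglia markers summed to between 6.48 and 8.01 FPKM in the ferret and between 533 and 550 FPKM in the mouse libraries, with Cx3cr1 listed at 0 in both ferret libraries. Of these 11 genes, 9 reached the limit for testing only through the mouse libraries, so their calls are not counted. Of the oligodendrocyte lineage markers 3 of 7 tested were called higher in ferret astrocytes and 0 lower, beside 13.1% of all tested genes called higher, and 4 or 5 of the 7 were called higher under the other 3 scalings. Of the neuron markers, 2 of 3 tested were called higher. Through the ferret libraries alone, 2 of these 7 and 1 of these 3 reached the limit for testing. The sum of the 5 neuron markers went the other way, at 26.3 and 25.9 FPKM in the ferret and 31.9 and 33.2 FPKM in the mouse libraries. Map2, which was not called, made up most of each sum, with 18.9 FPKM in ferret against 30.8 FPKM in mouse astrocytes on average. Without Map2, the sum of the other neuron markers lay higher in both ferret libraries. The 10 astrocyte markers also summed lower in ferret, at 4740.4 and 4927.5 FPKM against 7246.7 and 7742.5 FPKM in the mouse libraries. Vim made up most of the mouse sum, with 1230 FPKM in ferret against 4262 FPKM in mouse astrocytes on average. Without Vim, the sum of the other astrocyte markers lay higher in both ferret libraries. The part of any of these cell types in the values of the caveolae genes, whether higher or lower in ferret, was not tested.

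**Figure D5:**
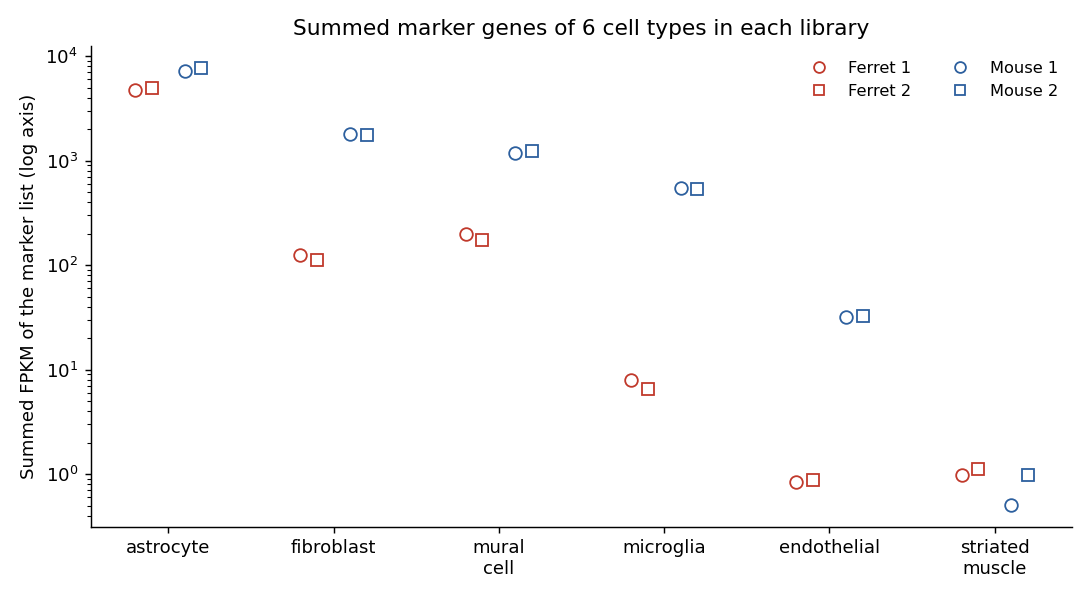
Summed FPKM of 6 lists of marker genes in each library, on a log axis. Red symbols are ferret and blue symbols mouse libraries, circles are replicate 1 and squares replicate 2. The astrocyte, fibroblast, mural cell, microglia and endothelial sums are all lower in both ferret libraries, the astrocyte sum only through Vim. The striated muscle sum is near 1 FPKM or below in all 4.

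The genes with the pattern nearest to each leading gene were found by the Euclidean distance over the 4 values of log2(FPKM + 1), as a description of 4 libraries. Nearest to Cavin2 were Cyp26b1 (distance 0.43), Aldh1a1 (0.51), Tmem176b (0.59), Tyrobp (0.63) and Cemip (0.80). Cyp26b1, for example, had 0.374 and 0.318 FPKM in the ferret and 149 and 141 FPKM in the mouse libraries. Nearest to Cav1, the caveolin with the highest mouse mean, were Ywhaq (0.23), Igfbp7 (0.32), Nbl1 (0.43), Ywhag (0.44) and S100a13 (0.47). Ywhaq had 288 and 302 FPKM in the ferret and 132 and 140.4 FPKM in the mouse libraries.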

How the data were processed

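Total RNA of cultured astrocytes was made into 4 stranded, polyA-selected libraries, 2 for each species. Per the labels and the study's methods, the authors aligned the paired-end reads with STAR 2.7.0f to the Ensembl genome of each species (MusPutFur1.0 for ferret, GRCm38 for mouse) and deposited 1 FPKM per gene and library from Cufflinks 2.2.1, normalized to mapped fragments and exon length and not scaled between species. Low expression, gene models of unequal length and the make-up of each annotation enter these values, which carry no depth. The study's read counts and gene lengths were not used here.

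The ferret values held 14584 symbols and the mouse values 55139. Where a symbol had several rows, the row with the highest species mean was used. Tests used limma (version 3.58.1, R version 4.3.3) with its trend option, a pseudocount of 1 and no covariate, and were checked on simulated data. The older symbols Ptrf, Sdpr, Prkcdbp and Murc were looked for and found in 0 rows. Joins and figures used Python 3.11.15 with pandas 2.3.3. Mouse coordinates are from GENCODE M21, which has the same build as the authors' mouse genome but is another annotation release.

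The members, the lists and the tests were chosen with earlier results of these data known. Every member is named. From the other lists, genes were named from the called ones with the largest differences (at most 3 a direction and list), of which only those a result turns on are printed, with the 5 genes nearest to Cavin2 and to the caveolin with the highest mouse mean. Gfap, Pecam1, Cldn5, Rgs5, Cx3cr1, Col1a1, Col1a2, Dcn, Myod1 and Myog are among the first 3 genes of their lists. Ehd3, Flna, Flot2, Stom, Ror1, Vim, Lum, Pcolce, Ogn, Pdgfra, Map2, Olig2 and Cspg4 were named after their values were seen. Alternatives were a pseudocount of 0.1, no filter, 3 other scalings, summed rows, no trend, a replicate block and each library left out. Sequences are not printed.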

Additional observations from a re-analysis of the deposited data

How the results depend on the processing

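Each of the 6 tested caveolae genes other than Cavin2 kept its direction under all 12 alternatives. No filter, summed rows, no trend and the replicate block could not change the log2 difference of these single-row genes. Only the pseudocount, the scalings and the libraries left out could move it. How many of all tested genes kept their direction was not counted. Cavin2 also stayed lower, but the family was selected on its values, so this supports nothing. Cav1 lay between 1.26 and 1.68, Cavin1 between -1.87 and -1.45 and Cavin3 between -1.94 and -1.40 on the log2 scale, and all 3 stayed called. With every library set to a total of 1000000, 2 caveolae genes (Cav1 and Ehd2) were called higher in place of 1, and genes called higher among all tested genes rose from 1336 to 2197, against 2536 lower in place of 3069. After quantile normalization 2080 were higher and 2082 lower, and with the libraries rescaled to equal sums at the level of the deposited values 1954 were higher and 2215 lower. The share of higher calls was 30.3% as deposited and 46.4%, 50.0% and 46.9% under these 3 scalings. Cavin2 moved most, to -8.69 with a pseudocount of 0.1, since its ferret values were below 1. Without each library in turn, genes called higher numbered 1316 to 1372 and genes called lower 3049 to 3095, caveolae genes other than Cavin2 called higher 1 and lower 2, and the log2 ratio of summed cavins to caveolins differed by -3.74 to -3.69. Without a library, its group is 1 sample assumed to vary like the other group.

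The labels give both species the replicate numbers 1 and 2, which share only a number, since the animals differ. With the replicate number as a block, Cav1 stayed at 1.28 and 1342 genes were called higher and 3072 lower, and the block changed no call of a caveolae gene. The low values of Cav3, Cavin4 and ferret Cavin2 are given without a bound, since read counts were not used here.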
